A study of Mus musculus with 3 samples.

Results

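Binding of TBX5 deep inside the longest mouse genes was examined in fetal lung (E14.5, CD-1 stock) by ChIP-seq, in which chromatin is pulled down with an antibody and its DNA sequenced. A peak was included if its summit, the position of highest signal, lay inside a protein-coding gene of 200 kb or more from its first to its last annotated base, and over 1 kb from every end of a protein-coding gene. This rule used positions only and took 5143 of the 28381 peaks of the deposited list (18.1%, exact 95% binomial interval 17.7 to 18.6%). There were 990 such long genes among 21631 protein-coding genes (4.58%), with a median length of 325.2 kb. There were 2 TBX5 ChIP libraries and 1 input library of chromatin not pulled down. A replicate was 1 whole lung, and the labels name no allele or treatment. All 3 titles name lung, but the source given for the second ChIP library and for the input is heart. The group has 1 peak list, and which libraries entered it is not given in the labels. Spread between libraries could therefore not be measured, depth is unknown, and a whole lung mixes mesenchyme, epithelium, endothelium and other cells.

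TBX5 is a T-box transcription factor that binds DNA through a motif with the core GGTGTG. In the developing lung it acts in the mesenchyme, the tissue around the growing airways that forms fibroblasts and smooth muscle. Long genes consist mostly of introns, and introns often carry enhancers, stretches bound by transcription factors that can act on the host gene or on a neighbour. Long genes may also hold inner starts, where shorter transcripts of the gene or non-coding RNAs begin, and microRNA genes.

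The few promoters inside long genes where a TBX5 summit fell are shown first, since they are the members whose sequence is at hand. RefSeq start windows of 300 bases (GRCm38.p6, the assembly of build mm10) held a TBX5 summit in 57 of 1337 cases inside long genes, and 54 peaks fell in such a window. The sequences below are the 250 bases before the start, 5′ to 3′ on the strand of the transcript, with GGTGTG on either strand, or in Rarb the known retinoic acid response element, in capitals. They were picked after their values were seen, as the 3 with the highest −log10 q (q is the false discovery rate given by the peak caller), the 2 next highest that hold GGTGTG, and 2 of known biology. Bcas3os2, a non-coding RNA gene within Bcas3, lies at chr11:85775681-85775930 on the minus strand and had a peak of 26.4-fold enrichment over local background. Ablim1, which encodes an actin-binding LIM protein, has its inner start at chr19:57197632-57197881 on the minus strand (17.9-fold). Mllt3, a subunit gene of the super elongation complex, has an inner start at chr4:87806324-87806573 on the minus strand (14-fold). The calcium/calmodulin kinase gene Camk2d has a start at chr3:126596701-126596950 on the plus strand (14.8-fold). The summit there was only 1.465 kb from the outer start of Camk2d, just past the 1 kb margin. P2ry14, a nucleotide-sugar receptor gene nested in Med12l, starts beside chr3:59131119-59131368 on the minus strand (15.1-fold). Dnm3os, the precursor of miR-199a and miR-214 inside Dnm3, starts beside chr1:162217373-162217622 on the plus strand (10.5-fold). Rarb encodes retinoic acid receptor beta, and its inner start lies beside chr14:16575477-16575726 on the minus strand (5.62-fold).
Bcas3os2: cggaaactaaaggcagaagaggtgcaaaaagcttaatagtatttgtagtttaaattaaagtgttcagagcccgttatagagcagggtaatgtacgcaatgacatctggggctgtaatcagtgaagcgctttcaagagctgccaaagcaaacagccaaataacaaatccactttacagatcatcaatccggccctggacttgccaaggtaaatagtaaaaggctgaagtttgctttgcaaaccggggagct
Ablim1: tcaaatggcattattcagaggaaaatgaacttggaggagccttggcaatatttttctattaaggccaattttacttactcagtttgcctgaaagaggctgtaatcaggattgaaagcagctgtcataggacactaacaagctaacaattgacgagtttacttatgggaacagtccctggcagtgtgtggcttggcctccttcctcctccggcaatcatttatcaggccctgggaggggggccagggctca
Mllt3: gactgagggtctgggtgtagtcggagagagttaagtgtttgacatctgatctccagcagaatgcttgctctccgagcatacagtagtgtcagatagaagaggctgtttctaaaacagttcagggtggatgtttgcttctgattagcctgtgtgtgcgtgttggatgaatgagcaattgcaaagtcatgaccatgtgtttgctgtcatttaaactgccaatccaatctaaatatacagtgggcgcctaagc
Camk2d: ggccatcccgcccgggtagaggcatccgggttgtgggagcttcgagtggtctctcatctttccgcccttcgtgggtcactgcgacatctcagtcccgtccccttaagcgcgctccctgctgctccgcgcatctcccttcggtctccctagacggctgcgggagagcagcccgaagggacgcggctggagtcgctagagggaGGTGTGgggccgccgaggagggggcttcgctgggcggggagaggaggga
P2ry14: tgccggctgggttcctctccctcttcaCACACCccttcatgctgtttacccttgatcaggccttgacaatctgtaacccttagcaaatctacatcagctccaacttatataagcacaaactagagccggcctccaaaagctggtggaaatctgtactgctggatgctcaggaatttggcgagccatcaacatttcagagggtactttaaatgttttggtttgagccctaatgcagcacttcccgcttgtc
Dnm3os: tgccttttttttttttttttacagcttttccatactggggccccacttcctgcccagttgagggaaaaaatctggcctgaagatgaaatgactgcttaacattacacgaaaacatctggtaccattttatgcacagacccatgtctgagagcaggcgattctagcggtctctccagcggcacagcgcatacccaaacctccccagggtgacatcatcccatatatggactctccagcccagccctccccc
Rarb: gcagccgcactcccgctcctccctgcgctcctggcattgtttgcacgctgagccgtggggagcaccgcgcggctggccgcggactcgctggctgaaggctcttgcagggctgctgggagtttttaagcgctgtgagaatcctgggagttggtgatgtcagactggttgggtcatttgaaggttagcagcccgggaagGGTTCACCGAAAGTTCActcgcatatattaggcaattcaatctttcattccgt

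The core motif was found in a share of the bound inner windows whose interval includes the share elsewhere. GGTGTG occurred, on either strand, in 12 of the 57 windows with a summit (21.1%, exact 95% binomial interval 11.4 to 33.9%), in 19.8% of 1280 inner windows with no summit and in 19.0% of all 32619 start windows in the table. The longer form AGGTGTGA was in 0 of the 57 and in 1.28% of all windows. A count of 0 allows a share of up to 5.26% by a limit of 3 counts, and up to 6.27% by the exact 95% binomial interval. The AP-1 motif TGACTCA was in 7.02% of the 57 and 5.22% of all, the homeobox motif TAATTA in 5.26% and 5.25%, and the GATA motif AGATAA in 5.26% and 11.2%, each resting on 3 or 4 windows of the 57. The response element in the Rarb window, through which retinoic acid receptors are known to act on this gene, was looked for after the data were seen and occurred in 2 of the 32619 windows. A match is a description of letters, and sequences away from starts were not analysed here.

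Dnm3, which encodes a dynamin of membrane scission, held 31 peaks over 495.9 kb, the members nearest to a mesenchymal microRNA cluster. The hairpins of Mir199a-2 and Mir214 lie inside it on the opposite strand, in the transcript of Dnm3os. The summit nearest to the Mir199a-2 hairpin was 418 bp away and belonged to the peak at the Dnm3os start, chr1:162217239-162217796 (−log10 q 20). That nearest to Mir214 was 1566 bp away, in a weak peak of 4.71-fold. Within 20 kb of each hairpin there were 6 summits. The mature sequences (RefSeq, GRCm38.p6) are given 5′ to 3′ with the seed, bases 2 to 8, in capitals, since they differ in seed and so form no shared seed group.
miR-199a-5p: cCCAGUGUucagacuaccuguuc
miR-199a-3p: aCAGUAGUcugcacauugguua
miR-214-5p: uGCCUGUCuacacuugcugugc
miR-214-3p: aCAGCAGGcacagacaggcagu
The strongest Dnm3 peaks lay elsewhere in the gene, up to 28.7-fold at chr1:162037916-162038788, 439.8 kb from its start, and 9 of the 31 were strong. Strong here means a place in the top 5000 of the whole list when ranked by −log10 q. Of 88 microRNA hairpins inside long genes, 7 had a summit within 1 kb and 19 within 10 kb. The same shares were not computed for other positions inside long genes. Whether peaks lie closer to hairpins than elsewhere was therefore not tested. The nearest hairpins were Mir7687 in Gse1, 149 bp from a 5.86-fold peak, Mir6398 in Macf1, 233 bp from one of 9.43-fold, and Mir5110 in Bcas3, 266 bp from one of 6.85-fold. Mir21b, inside Egfem1, was 3167 bp from a peak of 38.2-fold, and Mir218-1, inside the guidance gene Slit2, 6743 bp from one of 6.60-fold.

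Peaks inside long genes were somewhat higher than those inside shorter genes. Fold enrichment, the authors' deposited value for how far the summit rose above local background, had a median of 6.67 (quartiles 5.18 and 10.4, range 2.50 to 98.98). It was 6.28 (5.07 and 9.29) for the 6610 peaks inside genes under 200 kb, 6.60 (5.18 and 9.89) for the 11647 between genes and 5.49 within 1 kb of gene ends. Strong peaks numbered 1112 of 5143 (21.6%, exact 95% binomial interval 20.5 to 22.8%), against 17.6% of all peaks and 17.5% (16.6 to 18.5%) inside shorter genes. The strong share was closer between genes, at 19.9% (19.2 to 20.7%), and only 8.21% within 1 kb of gene ends. At or over 10-fold stood 1333 (25.9%, 24.7 to 27.1%), against 21.2% of all peaks and 20.9% inside shorter genes. Between genes this share was 24.6% (23.9 to 25.4%), and within 1 kb of gene ends 8.65%. Of the 81 peaks at or over 50-fold, 22 were inside long genes, 16 inside shorter ones, 43 between genes and 0 within 1 kb of gene ends. A margin of 5 kb at gene ends was also used in place of 1 kb. The difference between the medians in long and shorter genes then fell from 0.39 to 0.0688. With the median of shorter genes taken as fixed, the 95% interval of the long-gene median gave 0 to 0.333. Median widths were 290 and 288 bp. Peaks of 1 list are not replicates, so none of these differences was tested, and the intervals cover counting error only.

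**Figure D1:**
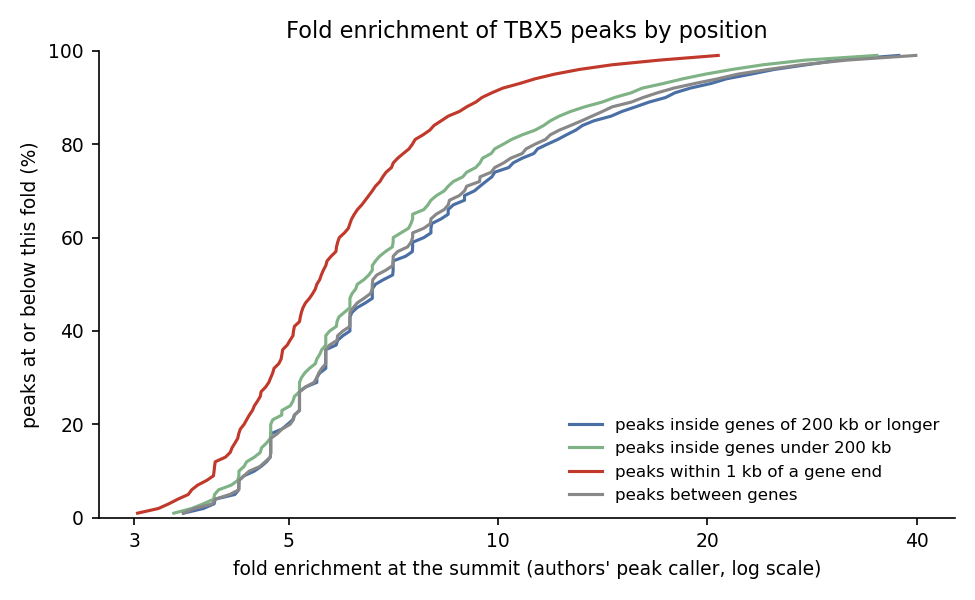
Cumulative share of TBX5 peaks (vertical axis, %) at or below each fold enrichment at the summit (horizontal axis, log scale), drawn from the first to the ninety-ninth percentile for 4 positions of the summit. The curve for genes of 200 kb or longer (median 6.67) lies close to that between genes (6.60) and to the right of those for shorter genes (6.28) and gene ends (5.49).

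Per unit of sequence, long and shorter genes held nearly the same number of peaks. The interior of long genes, the part over 1 kb from every protein-coding gene end, came to 417.1 Mb and held 12.3 peaks per Mb (exact 95% Poisson interval 12 to 12.7). The interior of shorter genes came to 569.4 Mb and held 11.6 per Mb (11.3 to 11.9), a ratio of 1.06 (1.02 to 1.10). For strong peaks alone the ratio was 1.31 (1.21 to 1.42). Without the 10 long genes with the most peaks the ratio for all peaks was 1.00 (0.965 to 1.04). Those genes were chosen for their counts and none was removed among shorter genes, so the ratio could only fall. The direction depended on the limits chosen: the ratio was 0.93 (0.893 to 0.967) at 300 kb, 0.753 (0.716 to 0.792) at 500 kb, and 0.823 (0.796 to 0.851) with no margin at gene ends. Just below the limit, genes of 150 to 200 kb held 14.8 peaks per Mb (13.9 to 15.6).

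Density was lower in the longest classes, and genes of neuronal adhesion and synapse held fewer peaks than the other genes in each length class. There were 15.3 peaks per Mb in the 433 genes of 200 to 300 kb, 14.2 in the 330 of 300 to 500 kb, 11.1 in the 168 of 500 to 1000 kb and 7.12 (exact 95% Poisson interval 6.55 to 7.73) in the 59 of 1000 kb or longer. Of these 59, 27 belonged to a list of 86 genes of neuronal adhesion and synapse. They held 0.446 peaks per 100 kb (0.381 to 0.519), against 0.956 (0.864 to 1.06) in the other 32. Among genes of 200 to 300 kb outside that list the density was 1.54 per 100 kb (1.47 to 1.62), so density was also lower in the longest genes outside it. The neuronal list had only 5 genes of 200 to 300 kb, with 0.234 per 100 kb (0.0482 to 0.683). The intervals of the first 2 classes, 14.51 to 16.03 and 13.57 to 14.89 per Mb, overlapped. Median fold did not follow length, at 6.61, 6.67, 6.91 and 6.64 over the 4 length classes. Across the 990 genes, which share 1 peak list, Spearman's rho of length with the number of peaks was 0.259, and with peaks per 100 kb it was −0.068.

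**Figure D2:**
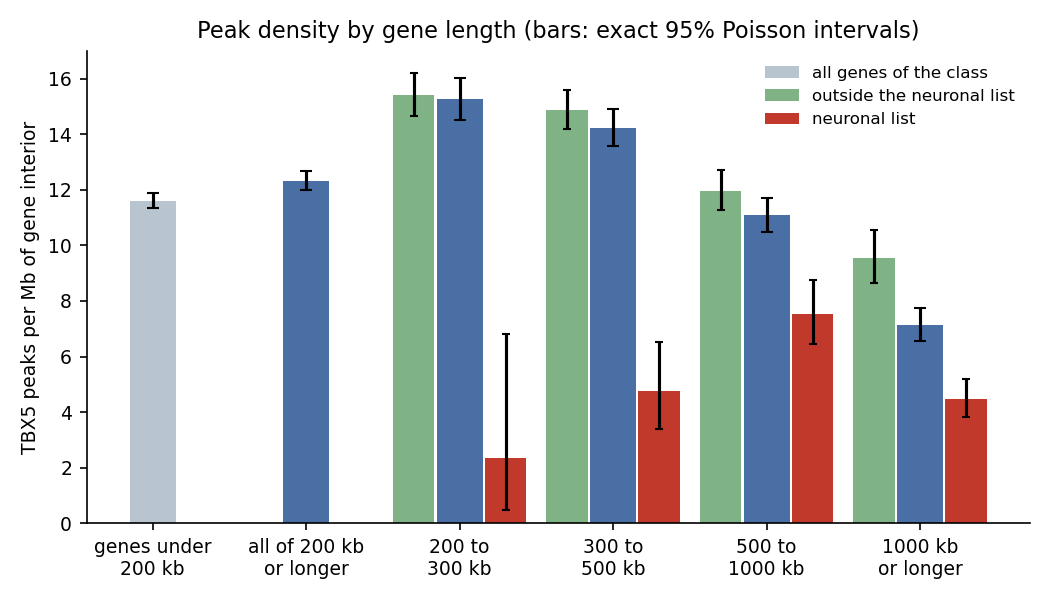
TBX5 peaks per Mb of gene interior (vertical axis) in genes under 200 kb, in all genes of 200 kb or longer and in 4 length classes of the latter, with exact 95% Poisson intervals as error bars. In each class the red bar (neuronal adhesion and synapse list) is below the green bar (all other genes), and the bars for all genes of a class run from 15.3 per Mb at 200 to 300 kb down to 7.12 at 1000 kb or longer.

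The peaks were spread over most long genes, but unevenly. At least 1 peak was found in 805 of 990 long genes (81.3%, which is also the background against which the lists below are read), with a median of 3 a gene. This share differed with gene length, at 75.1, 83.3, 90.5 and 89.8% over the 4 length classes from shortest to longest. The lists were not matched for length, so 81.3% is only a rough background for them. A strong peak was found in 470 (47.5%). Peaks per 100 kb of interior had a median of 0.914 (quartiles 0.293 and 1.98). The 165 genes with the most peaks (16.7% of long genes) were enough to hold 50% of them, and 174 genes had 10 or more. As 27 peaks lay in 2 or 3 overlapping long genes, the 5143 peaks made 5177 pairs of peak and gene, on which the values per gene, list and length class rest. Long genes of chromosome X held 2.56 peaks per Mb (exact 95% Poisson interval 1.91 to 3.36), against 9.02 to 17.0 on the 19 autosomes. Shorter genes were low on X as well, at 4.95 per Mb.

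**Figure D3:**
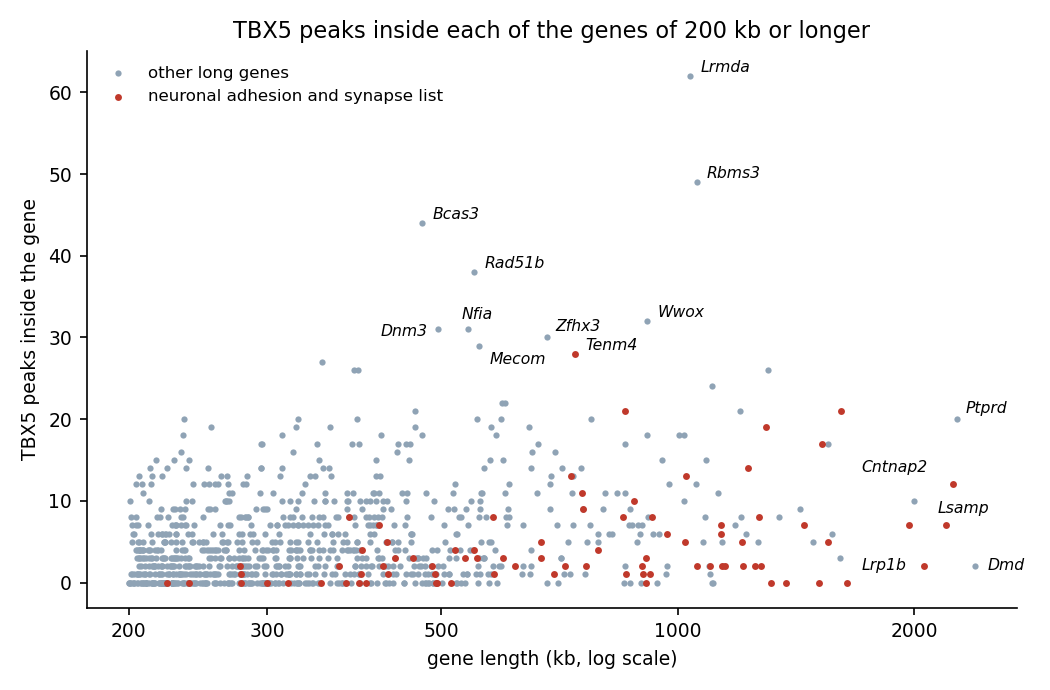
Number of TBX5 peaks inside each of the 990 genes of 200 kb or longer (vertical axis) against gene length in kb (horizontal axis, log scale), with genes of the neuronal adhesion and synapse list in red. Lrmda (62 peaks), Rbms3 (49) and Bcas3 (44) stand above the rest, while Dmd, the longest gene, has 2.

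Lrmda, a gene of melanocyte differentiation, held the most peaks. It had 62 over 1036.6 kb, or 5.99 per 100 kb (exact 95% Poisson interval 4.59 to 7.68), and 24 were strong. Its highest peak was 81.4-fold at chr14:22759603-22761108, 741 kb from the gene's start. A second stood at 54.8-fold at chr14:22745799-22746732, and others at 58.7-fold (chr14:22707998-22708949) and 55.1-fold (chr14:22647914-22648657). These 4 lay at least 295.5 kb from either end of Lrmda. The neighbours on either side are Zfp503, a zinc-finger repressor gene 29.9 kb away, and Kcnma1, a potassium channel gene of smooth muscle 236.2 kb away.

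Rbms3, which encodes an RNA-binding protein of fibroblasts and muscle, had 49 peaks, 13 of them strong. An uninterrupted run of 11, with no gap over 10 kb between summits, spanned 15.6 kb and included its highest peak (38.0-fold at chr9:116871638-116872130, 758.1 kb from the start). Zfhx3, a large homeobox and zinc-finger factor gene, had 30 peaks, of which 10 formed a run of 11.5 kb with a highest fold of 17.7. Mecom and Nfia, transcription factor genes of progenitors and of mesenchyme, had 29 and 31 peaks, 4 and 3 of them strong. In Nfia the folds ran from 3.14 to 20.7 with a median of 6.60, near the 6.67 of all peaks inside long genes.

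Bcas3 had the most peaks for its length. It held 44, or 9.34 per 100 kb (exact 95% Poisson interval 6.79 to 12.5), 15 of them strong. A run of 23 peaks spanned 72.9 kb, from 360.5 to 433.4 kb past the start of Bcas3, towards the end that lies 6.56 kb from Tbx2, with Tbx4 at 60.3 kb. Its highest peak, 76.8-fold at chr11:85754470-85755759, was 77.7 kb from the nearer end of Tbx2. Rad51b, a DNA repair gene, had 38 peaks (6.92 per 100 kb), 11 of them strong, up to 31.1-fold. Uvrag, an autophagy gene, had 19 (7.53 per 100 kb), and its highest peak, 37.8-fold at chr7:98911226-98911660, was 56.7 kb from Wnt11, a Wnt ligand gene. Ccbe1, which encodes a secreted factor of lymphatic growth, had 20 (8.58 per 100 kb), Tanc1, a scaffold protein gene, 18 (7.75) and Gse1, a corepressor gene, 27 (7.70). Tns3 and Mcc had 6.92 and 6.75 per 100 kb. Mcph1, with 14 peaks (6.76 per 100 kb), had 0 strong peaks and a highest fold of 8.37. That highest peak lay 5.80 kb from an end of another gene, Angpt2, and 89.3 kb from the nearer end of Mcph1. In Mcph1 a high count went with low peaks. The intervals of these densities were wide, as for Ccbe1 (5.24 to 13.3), and overlapped.

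**Figure D4:**
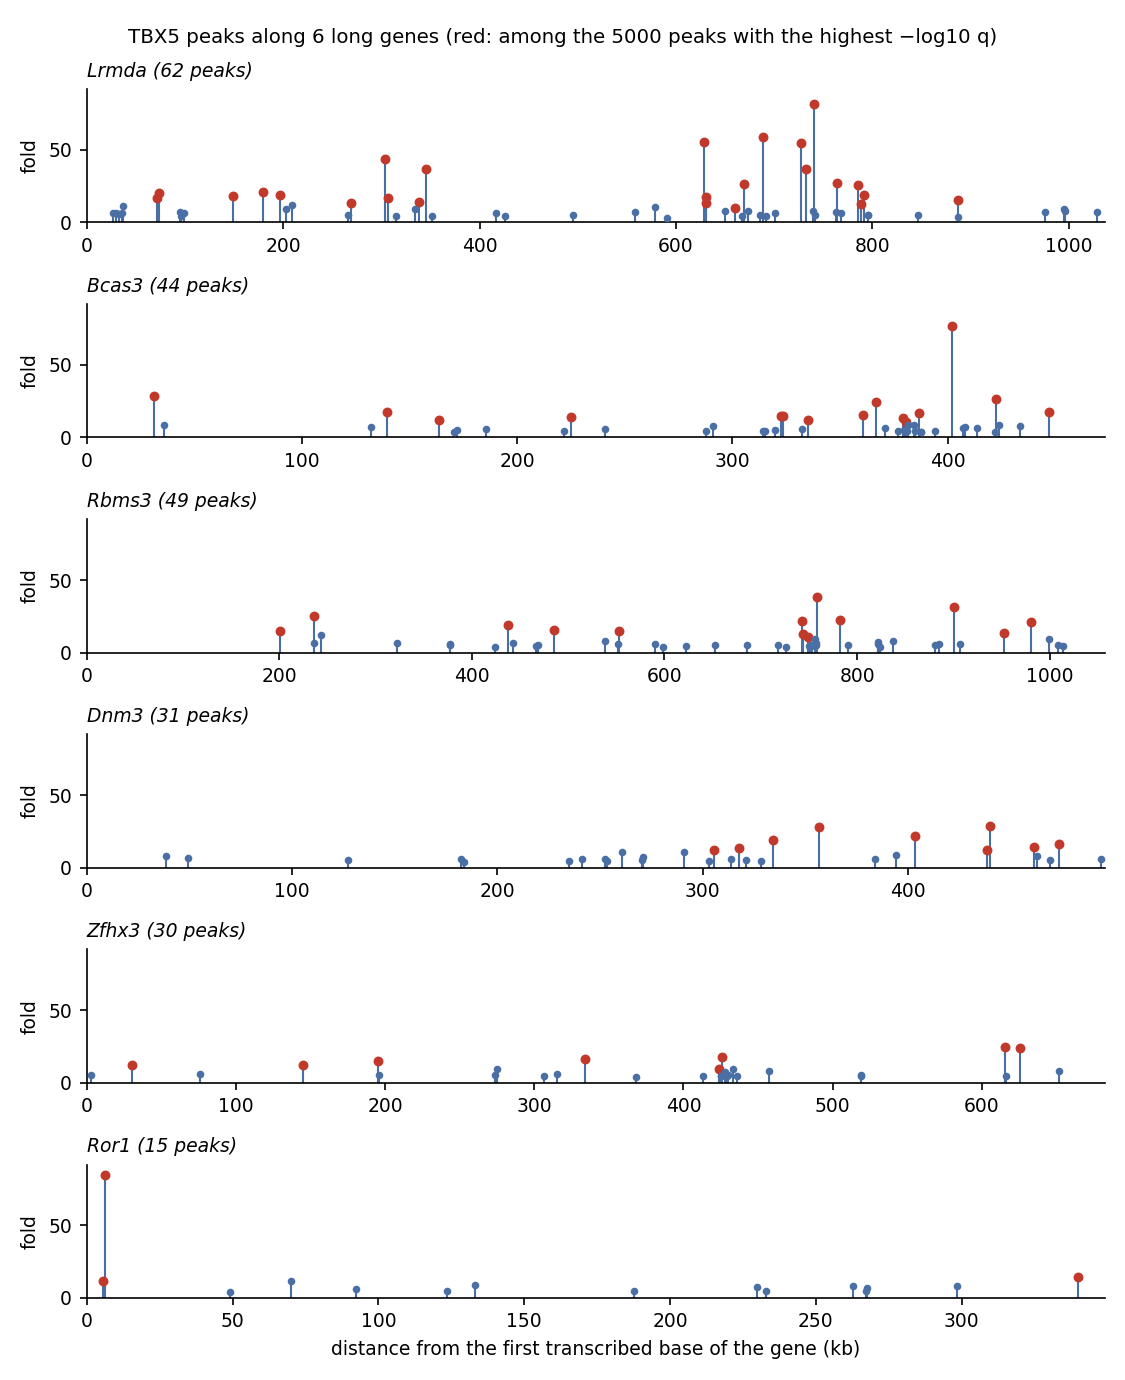
Fold enrichment (vertical axis) of every TBX5 peak inside 6 long genes against the distance of its summit from the gene's first transcribed base in kb (horizontal axis, 0 to the full length of each gene). Red points are strong peaks, the top 5000 of the list by −log10 q. In Lrmda, Bcas3 and Rbms3 the highest peaks lie in the later part of the gene, and in Ror1 the highest lies 6.33 kb from the start.

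The 10 peaks with the highest −log10 q fell in 9 long genes, at depths from 2.86 to 309.6 kb from the nearer end of the host. Ghr, the growth hormone receptor gene, carried 10 peaks in 265.6 kb, of which 6 were strong. Beside the 98.98-fold peak near its start these included 39.1-fold at chr15:3381392-3381936 and 20.3-fold at chr15:3511570-3512643. Ror1, a receptor gene of non-canonical Wnt signalling, had 15 peaks, of which the 84.7-fold peak was followed by 14.1-fold at the far end of the gene. Skap1, a T-cell adaptor gene, had 14 peaks, 5 strong, with 77.2-fold at chr11:96531648-96532803, 55.6-fold at chr11:96658186-96659025 and 44.9-fold at chr11:96504573-96505095. Its neighbour on that side is Hoxb1, 96.3 kb from the gene and 163.9 kb from the highest peak. Smg6, a gene of nonsense-mediated RNA decay, had 15 peaks, 6 strong, up to 65.9-fold at chr11:75033667-75034391. The phosphodiesterase gene Pde4d, over 1301.8 kb, had 26 with 73.5-fold at chr13:109665785-109666443. In Nfib, a mesenchymal transcription factor gene, the highest of 15 was 63.5-fold at chr4:82437718-82438472. Btbd9 had 8, up to 61.3-fold at chr17:30518724-30519443.

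Long genes of transcription factors, actin and smooth muscle proteins and matrix proteins held more peaks per length than long genes as a whole, as did the lists of endothelial, epithelial and blood cell genes and of widely used genes, and neuronal genes held fewer. The lists were chosen with earlier results of these data known, none was tested, and nothing is claimed as particular to a list. Over all 990 long genes there were 1.23 peaks per 100 kb (exact 95% Poisson interval 1.20 to 1.26), and by construction 50% lay above the median of 0.914.

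Of 51 long genes of transcription factors and cofactors of mesenchyme or development, 48 had a peak and 41 (80.4%) a strong peak, against 47.5% of all long genes. They held 2.34 peaks per 100 kb (exact 95% Poisson interval 2.14 to 2.55), and 45 of 51 lay above the median. Nfib (6.99 per 100 kb), the hedgehog effector Gli2 (13 peaks, 5.95) and Nfia (5.75) stood highest, and the Hippo effector Tead1 had 9 peaks (3.99). Zfp423, a zinc-finger factor gene, had 9, up to 58.6-fold at chr8:87758679-87759114. Foxp1, a forkhead repressor gene, had 22 (3.70), the highest of only 14.1-fold. Rarb had 16, 5 of them strong, up to 27.8-fold. Gli3 had 4 and Ebf1 5, while Esr1, Mitf and St18 had 0. Their median fold, 6.67, was that of all long genes, so the list was above the rest in number and not in height.

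The 23 long genes of smooth muscle, the actin cytoskeleton and cyclic nucleotide signalling all had a peak, with 2.09 per 100 kb (1.85 to 2.34), and 18 lay above the median. Tns3 and Tns1, tensins of focal adhesions, had 16 and 13 peaks, and Palld, which encodes the actin-bundling protein palladin, had 26, 8 of them strong. The integrin gene Itga9 had 14. Pde1a, a phosphodiesterase gene, had 13, up to 48.2-fold at chr2:79957727-79958455. Prkg1, the cGMP-dependent kinase gene of smooth muscle relaxation, had 21 over 1200.8 kb (1.76 per 100 kb). Dmd, the dystrophin gene and the longest of all at 2390.4 kb, had 2, neither of them strong, and lies on chromosome X.

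Of 21 matrix genes, 18 had a peak, with 1.95 per 100 kb (1.65 to 2.30), and 13 had a strong peak. Fbn1, fibrillin of elastic fibres, had 13 peaks (6.38 per 100 kb), and the collagen genes Col14a1 and Col25a1 had 12 and 18, up to 46.2-fold (chr15:55355960-55356584) and 38.6-fold (chr3:130300462-130300915). Adamts12, Spock3 and Spon1 had 0. All 20 guidance genes had a peak, with 1.36 per 100 kb (1.15 to 1.60). Slit3 had 18 peaks, up to 34.9-fold, its receptor gene Robo1 18, up to 29.0-fold, and the semaphorin gene Sema6d 19. The netrin receptor genes Dcc and Unc5d had 2 and 1.

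Signalling lists lay near or below the level of all long genes. The 15 growth factor, TGF-beta and BMP genes held 0.928 peaks per 100 kb (0.733 to 1.16), with 12 carrying a peak and 6 a strong one. Bmper, a secreted BMP modulator, had 13, up to 37.3-fold, and Ghr, Bmpr1b and Igf1r had 10, 11 and 8. Fgf13, Fgf14 and Nrg3 had 0, and Fgf13 lies on chromosome X, where density was low. The 8 Wnt and planar polarity genes held 1.04 (0.806 to 1.33). There, Ror1 and the polarity gene Prickle2 (12 peaks, up to 38.6-fold) stood above the glypican gene Gpc6 (12 peaks, 1.14 per 100 kb).

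Of 14 long genes of cardiac channels and the sarcomere, 13 had a peak, with 1.29 per 100 kb (1.01 to 1.61), and 6 a strong one. The highest counts were in calcium channel and exchanger genes, where Cacnb2 had 17, Cacna1c 12, Cacna1d 10 and Slc8a1 10. In Cacnb2, 10 of the 17 formed a run of 42.4 kb beginning 4.89 kb from the start. The ryanodine receptor gene Ryr2 had 1, and titin, Ttn, had 0, which allows up to 1.08 per 100 kb by the limit of 3 counts and up to 1.33 by the exact 95% Poisson interval. The source given as heart for some libraries was not tested for its part in these values.

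The neuronal list held 0.544 peaks per 100 kb (0.490 to 0.601), with 65 of its 82 long genes carrying a peak and 17 above the median. Tenm4, a teneurin gene, stood above it with 28 peaks, 7 strong, up to 53.2-fold, and Rbfox3 had 2, both strong, up to 42.1-fold. Among the longest genes, Cntnap2, Lsamp and Lrp1b of this list had 12, 7 and 2 peaks, while Ptprd, which is not on it, had 20. Of all long genes, Csmd1 (1642.8 kb), Dpp10, Il1rapl1 (on chromosome X, where density was low), Lrrc4c and Nrg3 were the longest with 0. For Csmd1 this allows up to 0.183 per 100 kb by the limit of 3 counts, and up to 0.225 by the exact 95% Poisson interval. The median fold of the neuronal list, 6.60, differed little from the 6.67 of all long genes.

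Among 10 long endothelial, epithelial and blood cell genes, 8 had a peak, with 1.76 per 100 kb (1.41 to 2.18), of which Mecom, Skap1 and Arhgap15 (19 peaks, 9 strong) supplied most. Only 5 of the 10 lay above the median of all long genes. The median gene of the list had 0.764 per 100 kb, below the 0.914 of all long genes. The 27 widely used genes held 1.73 per 100 kb (1.55 to 1.93), and their 97 strong peaks made up 30.2% of the list's 321, with Lrmda, Bcas3, Rad51b and Wwox (32 peaks, up to 46.2-fold) leading and Fhit at 3 and Tbc1d5 at 0. Lrmda, whose known role lies in melanocytes and not in general maintenance, supplied 62 of the 321 peaks and 24 of the 97 strong ones. That list was drawn up with the high counts of several of these genes known. The 721 long genes on no list held 1.22 per 100 kb (1.18 to 1.27).

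Along the gene, peaks leaned towards the later part. Strand was known for 744 of the 990 genes, which held 4003 pairs of peak and gene. Each gene was divided into 5 equal parts from its start. The first part had 17.7% of the pairs (exact 95% binomial interval 16.6 to 19.0%) on 19.9% of the interior, and the fourth had 22.4% (21.1 to 23.7%) on 20.1%. In peaks per Mb the 5 parts in order had 11.2, 11.8, 12.6, 13.9 and 13.0. Strong peaks made up 19.2% of the peaks in the first part (16.3 to 22.2%) and 23.7% in the fourth (20.9 to 26.6%). The stretch from 1 to 10 kb past the start was an exception, with 18.8 peaks per Mb (15.6 to 22.4), against 11.9 (10.7 to 13.2) from 10 to 50 kb. The peaks in the former were lower, with a median fold of 6.13 and 15.2% strong. Before the last base, the densities over the same distances were 14.54 (11.8 to 17.7) and 14.1 (12.7 to 15.5).

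**Figure D5:**
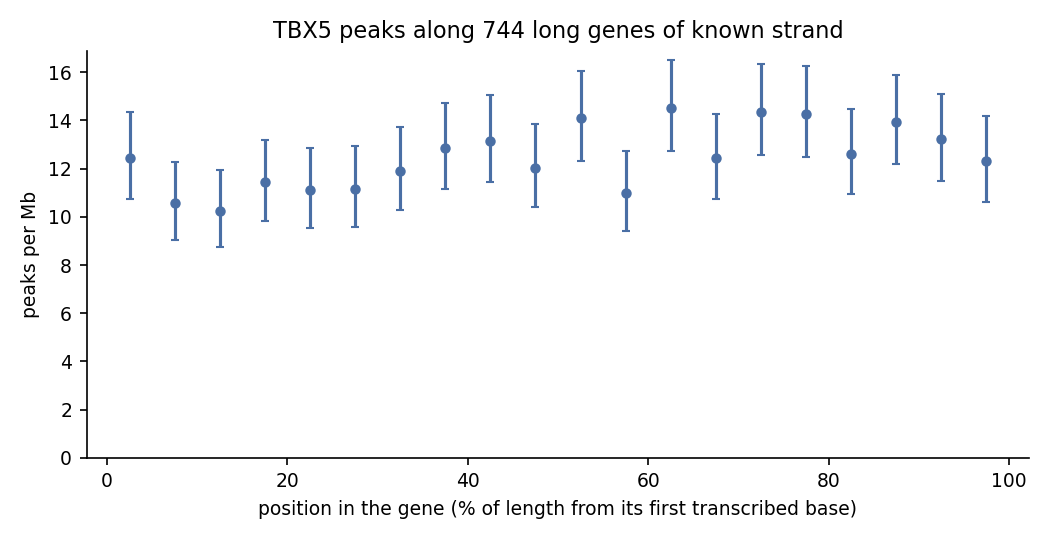
TBX5 peaks per Mb of gene interior (vertical axis) in 20 equal parts of each gene from its first transcribed base (horizontal axis, % of gene length), pooled over the 744 long genes of known strand, with exact 95% Poisson intervals. Over 5 equal parts the first averages 11.2 per Mb and the fourth 13.9, and neighbouring points overlap within their intervals.

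Many of the peaks were far from any gene end, which the rule favours, since it takes only the interior of long genes. The median distance to the nearest protein-coding gene end was 90.5 kb, against 14.4 kb inside shorter genes and 61.6 kb between genes. Over 100 kb away were 2318 (45.1%), up to 1099 kb in Cntnap2. The share of interior over 100 kb from gene ends was not computed, so the 45.1% does not show a preference for such sequence. Those deep peaks and the others had the same median fold of 6.67, and 21.7% of them were strong. For 369 peaks (7.17%) the nearest end belonged to another gene than the host. Another summit lay within 10 kb of 2662 peaks (51.8%, exact 95% binomial interval 50.4 to 53.1%), against 50.1% of all peaks and 54.5% inside shorter genes. Runs of 3 or more peaks with gaps of at most 10 kb numbered 355 in 230 genes and took 25.7% of the pairs. A run inside overlapping long genes was counted once for each gene. The same share was not computed for peaks elsewhere, so it has no background here.

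A small share of the peaks lay at inner starts. The share of gene interior within 1 kb of those starts was not computed, so these counts do not give a density. On the chromosomes covered by the table of starts, an inner start was at most 1 kb from 146 of 4899 peaks (2.98%, exact 95% binomial interval 2.52 to 3.50%). Of these, 88 were at a start of the host itself and 56 at that of a long non-coding RNA. Some host starts were close to the outer end of the gene, as in Sgms1 and Slit2, where the summit was 1.3 and 1.8 kb from it. The table matched only 744 of the 990 long genes, so peaks at starts of the other genes may be counted as away from starts. At host starts the median fold was 5.72 (95% interval of the median 5.24 to 6.43), near that of gene ends, and at non-coding starts 7.40 (5.57 to 9.41). Peaks over 1 kb from every start in the table had a median of 6.67. Of the 1337 inner starts, 150 had a summit within 1 kb (11.2%, 9.58 to 13.0%). At the outer start of the 744 genes of known strand, a peak outside the rule lay within 1 kb in 23.4% (20.4 to 26.6%). The share was 11.03% of the genes with no inner peak (6.31 to 17.5%) and 23.1% of those with 1 to 4. It was 24.7% of those with 5 to 9 and 34.5% of those with 10 or more (26.7 to 43.1%). These groups were not matched for gene length, and a link between start peaks and inner peaks was not tested.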

How the data were processed

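Peaks came from 1 list deposited by the authors. Per the submitters' processing notes, the tools were Bowtie2, SAMtools and MACS2 and the build was mm10. Versions, settings, merging of the ChIP libraries and use of the input are not stated there. The list has no header, so its units were read from its layout and values. The fold enrichment, a ratio to local background at the summit, the −log10 q and the integer score are the authors' deposited values, set by depths that are unknown. Many peaks share the same fold, since low counts allow few values. Fold and −log10 q served only for description and ranking inside the list. Starts are given 1-based.

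Genes came from a RefSeq table of GRCm38.p6, without exons, so introns and exons were not separated. Strand and inner starts came from the RefSeq start table, which matched 744 of the 990 genes. No genome sequence was used here, so the planned motif search around summits was not run and start windows were searched instead. Intervals are exact 95% binomial or Poisson intervals (scipy 1.17.1, Python 3.11.15) and cover counting error only. That of a median is from binomial order statistics, and that of a ratio of densities from the exact binomial. That of a difference in medians covers the error of the long-gene median only. Sorting of positions into classes was tested on simulated data.

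The members, the 10 gene lists and the rules were chosen with earlier results of these data known. All 360 listed genes matched by symbol, 269 of them at or over 200 kb, and 4 stood in 2 lists. Named were the 10 genes with the most peaks, the 10 with the most per 100 kb among those with 5 or more, the genes of the 10 highest peaks, the 2 genes of each list with the highest peak, the 5 longest, the 5 longest with no peak, and Ror1, Ghr, Nfia, Nfib, Foxp1, Ebf1, Gli3, Prkg1, Rad51b, Lrmda and Dmd, 50 in all. Other genes were named after their values were seen. Alternatives were other gene lengths, margins, peak positions, fewer peaks, autosomes only, other rankings and leaving out genes.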

Additional observations from a re-analysis of the deposited data

How the results depend on the processing

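Of 70 alternative values of 7 results, 37 lay within the 95% interval of the reported value, 30 moved outside it and 3 reversed. Some moves follow from the setting alone. These include the share of all peaks at another gene length, long genes with a peak among fewer peaks, and strong members with 1000 strong peaks. The ratio of density in long over shorter genes, 1.06, reversed to 0.93 and 0.753 with a limit of 300 and 500 kb and to 0.823 with no margin at gene ends; the cause was not tested. It was 1.14 at 150 kb, 1.12 and 1.31 with the highest 50% and the highest 5000 peaks, 1.00 without the 10 genes with the most peaks, and 1.18 without the neuronal list, an alternative added after the data were seen. The share of all peaks was 22.1, 12.6 and 6.30% at 150, 300 and 500 kb, 18.9 and 17.4% with no margin and 5 kb, 17.6% with a margin at every annotated gene end, and 19.2 and 22.2% of the highest 50% and 5000 peaks. The difference in median fold from shorter genes, 0.39, was 0.275 and 0.238 at 300 and 500 kb, 0.0688 with a margin of 5 kb, and 0.688 and 1.18 with the fewer peaks. Neighbours within 10 kb were found for 48.55% at 500 kb, 49.8% without the 10 genes, and 37.9 and 24.3% with the fewer peaks. Long genes with a peak were 77.2, 86.2 and 90.3% at 150, 300 and 500 kb, and 70.6 and 47.5% with the fewer peaks. The first of 5 equal parts of the gene held 16.1% with a margin of 5 kb and 15.4% of the highest 5000. Strong members were 4.51% with 1000 strong peaks. With the highest 50% of peaks the count of 38 of the 50 named genes changed by over 1.5 times, and with the highest 5000 that of 44. A shorter list must lower such counts, so these changes do not measure how stable they are. No paired analysis was possible because the list holds no value per library, and leaving out a library was not possible for the same reason. Depth is unknown.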
